A study of Homo sapiens with 29 samples.

Results

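The last doubling of dose in a dilution series of N-OH-PhIP, from 500 to 1000 nM, was described here as 6 arrays, 3 cultures at each dose, of 29 arrays in the series. N-OH-PhIP is the hydroxylamine formed from PhIP, a heterocyclic amine of grilled meat and tobacco smoke, and its further activation gives bulky adducts on guanine in DNA. The cells were BEAS-2B, human bronchial epithelium made immortal by a hybrid of adenovirus and SV40, so that all groups carry the SV40 large T antigen, which binds p53. Cultures were exposed for 24 h to 1 of 9 doses of N-OH-PhIP in DMSO, or to DMSO alone as the control, and every culture held DMSO at 1%. Messenger RNA levels were measured on an Affymetrix 3' expression array. The 3 arrays labelled 1000 nM were set against the 3 labelled 500 nM, and the 3 DMSO arrays served to say whether a difference added to, took back or turned a response already present at 500 nM. The arrays came from separate cultures, per the labels. No batch is named in the sources used here.

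A bulky adduct on the transcribed strand stops RNA polymerase until transcription-coupled nucleotide excision repair removes it, so a gene that spans more DNA offers more places to stop. Such damage also stabilises p53, the transcription factor that induces the CDK inhibitor CDKN1A, its own antagonist MDM2, repair factors and death receptors. Cells that stop dividing after damage often make the cytokine IL-6. The question here is which of these responses grew and which receded when the dose was doubled.

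Values are array intensities on a linear scale, differences are on the scale of log2(intensity + 16) with the standard error of the fit, and a called probe set has a Benjamini-Hochberg adjusted p under 0.05 in limma. Where a gene has several tested probe sets, the brightest on average stands for it unless another is named. Adding 16 shrinks the differences of dim probe sets. Detection calls were not used here, so a level near 16 or 37, the minimum mean for testing, was not shown to be above background.

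Of 27307 tested probe sets, 11820 (43.3%) differed between 1000 and 500 nM, with 4830 (17.7%) higher and 6990 (25.6%) lower at 1000 nM. The excess of lower ones changed with the scaling of the arrays. Quantile normalization gave 5190 higher and 6384 lower, and median centring gave 5774 and 5989, nearly even. Most differences were small: 2543 reached 1.5-fold, 1298 of them higher and 1245 lower. Among differences of at least 2-fold the balance ran the other way, with 344 probe sets higher and 119 lower at 1000 nM. At 4-fold it was 15 against 1, and the 1 lower probe set was that of IL6. Every 1000 nM array lay above every 500 nM array for 4847 probe sets (17.8%) and below for 6431 (23.6%). Over 12174 genes, 1872 (15.4%) were higher and 3869 (31.8%) lower, and the median difference was -0.07. With median centring 18.8% of genes were higher and 27.3% lower.

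The 500 nM cultures varied more among themselves than the others. The main fit gives each probe set 1 spread shared by all 10 groups. Its standard errors and p-values can thus be too small where the 500 nM arrays vary more. The median SD over probe sets was 0.154 log2 at 500 nM, 0.0953 at 1000 nM and 0.0877 in DMSO, and the lowest correlation between 2 arrays of a group was 0.980, between 2 of the 500 nM arrays. Giving each group its own weight, chosen after seeing this, left 7496 called probe sets (3089 higher and 4407 lower), and a fit of the 6 arrays alone left 6430 (2767 and 3663). The log2 ratio of 3' to 5' actin probe sets, a sign of RNA integrity and of the reach of amplification, was 2.21 ± 0.07 (SD, n = 3) in DMSO, 1.67 ± 0.20 at 500 nM and 1.52 ± 0.04 at 1000 nM. It overlapped between 500 and 1000 nM, but every DMSO array (2.13 to 2.26) lay above all arrays of both doses. Its part in the differences was not tested beyond a fit with it, averaged with the same ratio for GAPDH, as a covariate. That fit called 4525 probe sets higher and 6600 lower between the doses. Against DMSO it called 9704 at 500 nM and 11103 at 1000 nM, where the main fit called 12392 and 16345. Of 10 epithelial markers found on the array, 9 were over the minimum. KRT15 (-0.87), KRT19 (-0.51), CDH3 (-0.31) and CDH1 (-0.10) were lower at 1000 nM and KRT5 (0.61) was higher, while KRT7, KRT8, KRT18 and EPCAM were not called. Their part in the results was not tested. Leukocyte and endothelial markers each had 3 genes over the minimum, of 18 and 16 on the array, and their summed intensities overlapped between the doses (484 to 635 against 525 to 595, and 704 to 775 against 688 to 775). The summed intensity of 16 fibroblast markers, 3 over the minimum, overlapped too. That of 16 markers of differentiated airway cells, 7 over the minimum, was 2862 to 3276 at 500 nM and 3667 to 4021 at 1000 nM, and its part in the results was not tested.

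**Figure D1:**
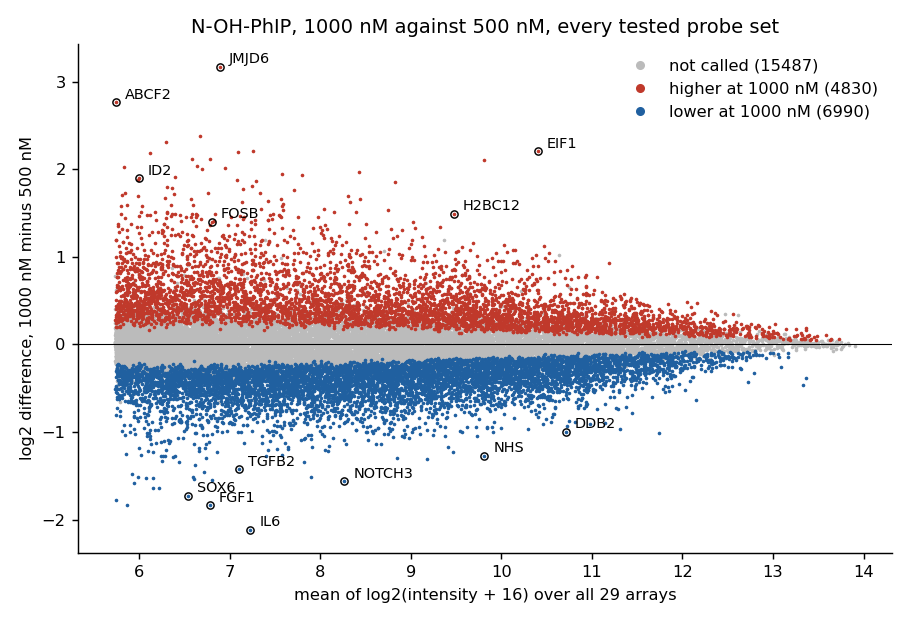
Each point is 1 of 27307 tested probe sets, placed by its mean log2(intensity + 16) over all 29 arrays (x axis) and by its log2 difference, 1000 minus 500 nM (y axis). Red points are the 4830 called higher and blue points the 6990 called lower. Blue points outnumber red ones, yet the farthest points, such as JMJD6 and ABCF2, lie on the higher side, and IL6 lies farthest on the lower side.

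Set against the response at 500 nM, the doubling worked in every direction. The comparison of 500 nM with DMSO called 12392 probe sets (45.4%), 6304 (23.1%) up and 6088 (22.3%) down, and that of 1000 nM with DMSO called 16345 (59.9%), 7892 (28.9%) up and 8453 (31%) down. Of the 6304 up at 500 nM, 1342 rose further, 1963 fell back and 2999 had no call between the doses. Of the 6088 down at 500 nM, 2199 fell further, 850 rose again and 3039 had no call. A further 2232 rose and 2306 fell at 1000 nM with no call at 500 nM. These groups share the 500 nM and DMSO arrays, so they sort the probe sets and are not tests of their own. A high value at 500 nM raises the difference from DMSO and lowers that between the doses.

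The p53 response at 1000 nM was smaller than at 500 nM. Of 32 measured p53 target genes, 0 were higher and 23 were lower at 1000 nM, against 15.4% and 31.8% of all genes. Of the 32, 20 were called lower with no overlap between the arrays of the doses. Over all genes, called or not, 28.5% had every 1000 nM array lower and 15% every one higher. Calls and lack of overlap go together, with 3869 genes called lower and 3474 with every 1000 nM array lower, so they are not separate evidence. The list had a median of 0.93 above DMSO at 500 nM, of 0.66 at 1000 nM, and of -0.36 for the difference between the doses. The response receded without ending. Against DMSO, 31 of the 32 were up at 500 nM and 30 at 1000 nM, where 25.2% and 27.3% of all genes were up. Of the 23 called lower, 22 were still above DMSO at 1000 nM by the test.

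The largest fall within this list was in DDB2, the damage sensor that brings the repair machinery to bulky adducts in chromatin. Its intensity was 1183, 1298 and 1392 in DMSO, 3218, 3131 and 2752 at 500 nM and 1519, 1569.8 and 1428 at 1000 nM. The doses did not overlap, and the 1000 nM arrays lay just above those of DMSO (-1.001 ± 0.07, adjusted p = 1.70e-10). XPC, which recognises the distorted helix itself, went from 754 ± 37.8 (SD, n = 3) to 465 ± 49.3 (-0.68 ± 0.09, adjusted p = 1.84e-06). TP53I3, an oxidoreductase tied to p53-dependent death, read 7071, 7020.4 and 5437 at 500 nM and 3276, 3578 and 3549 at 1000 nM, against 1509, 1588 and 1669 in DMSO (-0.90 ± 0.08, adjusted p = 4.80e-09). SPATA18, which acts in the clearing of damaged mitochondria, was no longer called against DMSO, with 501, 478 and 529 in DMSO, 1005, 875 and 916 at 500 nM and 418, 505 and 516 at 1000 nM (-0.94 ± 0.09, adjusted p = 1.43e-08). Its difference from DMSO at 1000 nM was -0.07 (adjusted p = 0.538).

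Death receptor genes fell with them. FAS read 3131, 3130.4 and 3112 at 500 nM and 1925, 2053 and 1852 at 1000 nM (-0.68 ± 0.05, adjusted p = 1.12e-10), and all 5 of its probe sets fell. TNFRSF10C, a decoy receptor for TRAIL, fell by 0.99 from 422 to 204, and TNFRSF10A, a signalling receptor, fell by 0.49. BAX, which opens the outer mitochondrial membrane, went from 1814 to 1248 (-0.52 ± 0.09, adjusted p = 8.71e-05), and BAK1, its partner, from 605 to 413 (-0.52 ± 0.11, adjusted p = 5.58e-04). CDKN1A, the CDK inhibitor, fell less and read 8407, 8124 and 7369.8 at 500 nM and 6784, 6606 and 6832 at 1000 nM (-0.24 ± 0.05, adjusted p = 6.89e-04), still above its DMSO values of 4588, 4479 and 4920.1. MDM2 had 5 of its 9 tested probe sets lower and 0 higher. The brightest differed by -0.26 ± 0.05 (adjusted p = 1.93e-04) and the other 4 called by -0.70, -0.70, -0.80 and -1.02. GDF15, a stress cytokine, went from 2917 ± 316 to 2463 ± 107 (-0.24 ± 0.07, adjusted p = 0.00767), a call lost without the first 500 nM array, at -0.15. Among 26 apoptosis genes 11 were lower and 4 higher (42.3% and 15.4%, against 31.8% and 15.4% of all genes). CFLAR, an inhibitor of caspase-8 (-0.61), CASP10 (-0.53) and FADD, a death receptor adaptor (-0.46), were among those lower. BCL2L11, the BH3-only protein BIM, rose at all 5 of its probe sets (0.66 at the brightest, up to 1.55), and PMAIP1, another BH3-only protein, rose by 0.29.

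Other p53 targets had no call between the doses. PPM1D, the phosphatase that turns the damage signal off, had means of 723, 1619 and 1558 in DMSO, at 500 and at 1000 nM, with a difference between the doses of -0.05 (95% interval -0.20 to 0.10). PLK2 (0.02, -0.24 to 0.28), CCNG1 (0.00, -0.09 to 0.10) and GADD45A (-0.06, -0.18 to 0.05) were likewise not called.

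**Figure D2:**
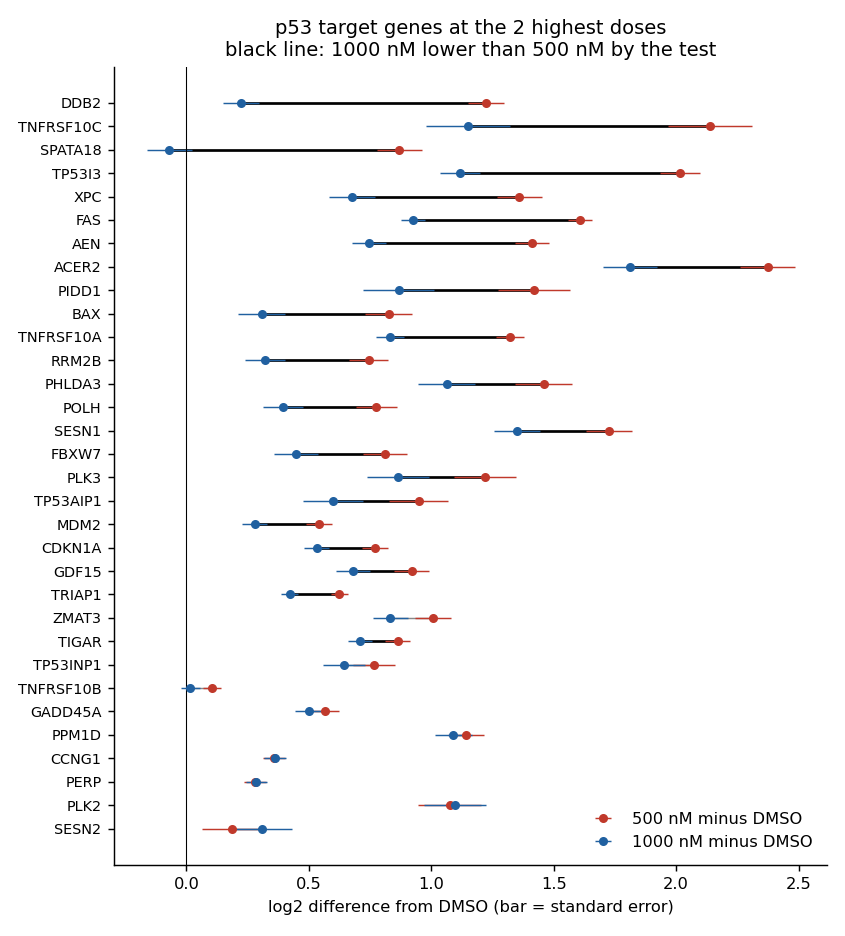
Log2 difference from DMSO (x axis, bars are standard errors of the fit) of the 32 measured p53 target genes at 500 nM (red) and 1000 nM (blue), ordered by the difference between the doses. Black lines join the 23 genes called lower at 1000 nM, and DDB2 shows the longest of them.

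Inflammatory and NF-kB target genes receded as well, and IL6 fell most of all genes. Of 19 measured inflammatory and NF-kB target genes, 11 were lower at 1000 nM (57.9%, against 31.8% of all genes) and 0 higher, with a median of -0.38. Of the 19, these 11 had no overlap between the arrays of the doses. Over all genes, called or not, every 1000 nM array was lower in 28.5%. Under the group weights 6 were called lower, as were 21.4% of all genes. IL6 read 82.4, 103 and 108 in DMSO, 618, 554 and 951 at 500 nM and 125, 159.8 and 157 at 1000 nM. All 3 of the 500 nM cultures stood far above both other groups, and the 1000 nM arrays lay above those of DMSO without overlap. The difference between the doses was -2.11 ± 0.18 (95% interval -2.48 to -1.75, adjusted p = 1.47e-09). LIF, a cytokine of the same family, kept part of its rise, with 371, 311 and 354 at 500 nM and 178, 208 and 222 at 1000 nM against 71.6, 85.3 and 96.8 in DMSO (-0.73 ± 0.12, adjusted p = 2.65e-05). IL11, another member, went the other way: 42.6, 70.5 and 48.2 in DMSO, 306, 262 and 269.8 at 500 nM and 630.0, 646 and 551 at 1000 nM (1.08 ± 0.12, adjusted p = 1.17e-07). The family did not recede as a whole. Of 11 measured IL-6 family cytokines and receptors, 3 were lower and 2 higher, with a median of -0.08. These were 27.3% and 18.2%, near the 31.8% and 15.4% of all genes.

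IL1B fell from 303 ± 42.4 to 202 ± 30.2 (-0.55 ± 0.12, adjusted p = 8.29e-04). The NF-kB subunits NFKB1 (-0.38), NFKB2 (-0.40) and RELB (-0.38) were lower, as were the inhibitors NFKBIA (-0.30) and TNFAIP3 (-0.45), which NF-kB induces to limit itself. CXCL8, a neutrophil chemokine, was not called at -0.48 ± 0.22 (adjusted p = 0.0789). Its 500 nM arrays ranged from 354 to 648, and without the second of them it was called, at -0.67, while without the third the difference was -0.25 (adjusted p = 0.387). PTGS2, the inducible cyclooxygenase, stood at 283, 506 and 632 in DMSO, at 500 and at 1000 nM and was not called between the doses (0.40 ± 0.20).

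The promoter of IL6 is shown because this gene changed most among those that fell. The sequence is the 150 bases before the RefSeq transcription start on GRCh38.p14, at chr7:22727050-22727199 (plus strand), 5' to 3' on the gene's strand, with capitals for the match to GGGANTTTC, a form of the NF-kB site. That motif, searched on both strands, was found in the 150 bases before 0.718% of 27305 promoters.

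IL6: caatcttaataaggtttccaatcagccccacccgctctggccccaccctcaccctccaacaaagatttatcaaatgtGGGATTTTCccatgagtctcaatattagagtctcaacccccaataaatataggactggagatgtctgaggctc

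Among 22 measured interferon-stimulated genes, 10 were lower and 2 higher (45.5% and 9.09%, against 31.8% and 15.4% of all genes). ISG15, a ubiquitin-like modifier, read 3805, 3942 and 2607 at 500 nM and 2603, 2322 and 2236 at 1000 nM against 832, 834 and 922 in DMSO (-0.51 ± 0.12, adjusted p = 0.00146). The groups at the doses met closely, at 2607 and 2603. RIGI, a sensor of viral RNA, fell from 615 to 395, below its DMSO mean of 508. IFI44 fell by 0.60 with no call at 500 nM. IRF7, the factor that drives interferon-alpha genes, rose to 407 from 291 (0.48 ± 0.13), and IFITM1, a membrane protein that blocks virus entry, rose to 481 from 357 (0.41 ± 0.09).

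Beside IL6, the other 11 genes of largest fall included several secreted or membrane proteins with a peak at 500 nM. FGF1, a fibroblast growth factor, read 87.2, 78.3 and 91.7 in DMSO, 247, 268 and 207 at 500 nM and 54.0, 60.5 and 52.6 at 1000 nM. Its 1000 nM arrays lay below DMSO without overlap (-1.83 ± 0.13 between the doses, -0.50 ± 0.13 against DMSO). NOTCH3, a receptor of the Notch family, had the same shape, with 227, 224 and 273, then 567, 564 and 623, then 216, 167 and 182 (-1.56 ± 0.13, adjusted p = 7.25e-10). CLCA2, a p53-inducible membrane protein, was lower with all 4 of its probe sets, and the one of largest change read 294, 289 and 244 at 500 nM and 66.3, 90.9 and 97.9 at 1000 nM (-1.54 ± 0.15, adjusted p = 8.20e-09). BLNK, an adaptor of B-cell receptor signalling, had means of 75.3, 426 and 135 in DMSO, at 500 and at 1000 nM. RASAL1, which switches RAS off, had means of 18.6, 235 and 57.1 in the same order, its DMSO level lying near the offset. CFAP74 (-1.64) and DNAI3 (-1.63), both parts of motile cilia, the noncoding RNF157-AS1 (-1.83) and DLGAP1-AS6 (-1.52), and ANKUB1 (-1.58) completed the group with SOX6, described below. TGFB2, a TGF-beta ligand, read 331, 305 and 342 at 500 nM and 109.6, 95.4 and 131 at 1000 nM, against 116, 107 and 99.4 in DMSO (-1.43 ± 0.14, adjusted p = 1.63e-08).

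**Figure D3:**
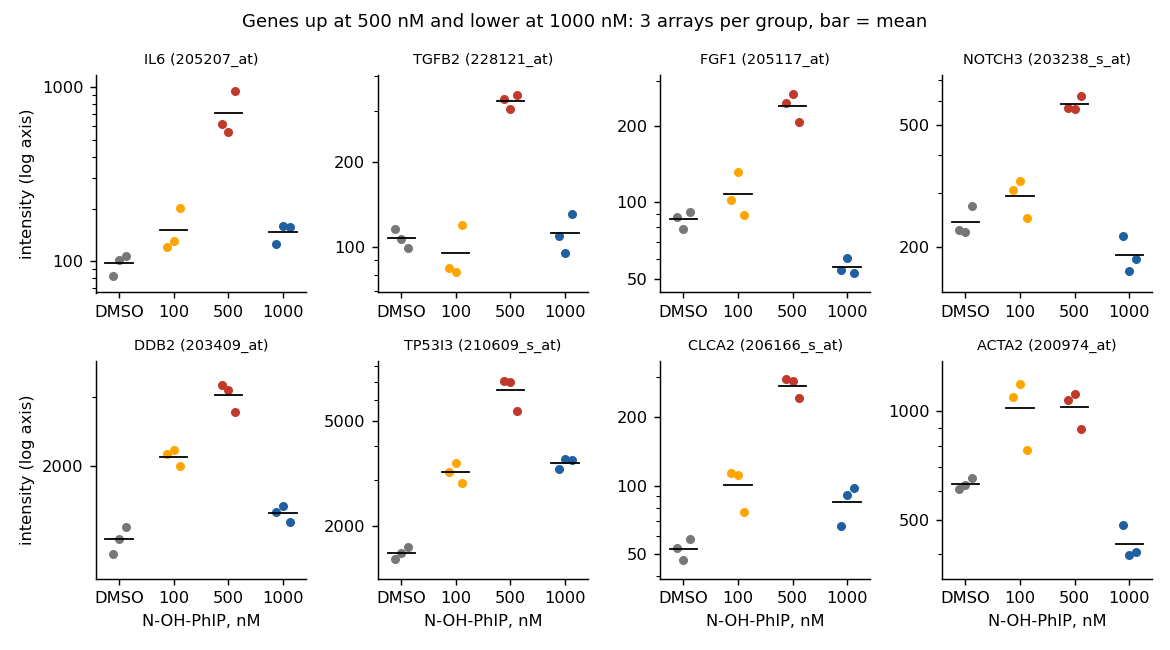
Intensity on each of 3 arrays (points, log axis) and the group mean (bar) in DMSO and at 100, 500 and 1000 nM for 8 genes, each with its probe set. In all 8 the 500 nM arrays lie above the 1000 nM arrays without overlap, and FGF1, NOTCH3 and ACTA2 end below DMSO.

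Contractile genes followed. Of 17 measured actin cytoskeleton and SRF target genes, 15 were up at 500 nM (25.2% of all genes were). At 1000 nM 8 were lower and 0 higher than at 500 nM (47.1% and 0%, against 31.8% and 15.4% of all genes). Of the 17, only 5 were called lower with no overlap between the arrays of the doses. Over all genes, called or not, every 1000 nM array was lower in 28.5%, so by that count the list was near all genes. ACTA2, smooth muscle actin and also a p53 target, read 1074, 1115 and 891 at 500 nM and 482, 398 and 405 at 1000 nM, below its DMSO values of 608, 623 and 651 (-1.23 ± 0.11, adjusted p = 5.96e-09). MYL9, a myosin light chain, went from 764 ± 253 to 440.2 ± 63.7 with arrays that overlapped (-0.73 ± 0.15, adjusted p = 3.89e-04). FHL2 (-0.53), ACTN1 (-0.39), ZYX (-0.33) and TPM1 (-0.29) fell as well. Among 17 targets and partners of YAP, the effector of the Hippo pathway, 10 were lower (58.8%) and 1 higher (5.88%). Those shares were 31.8% and 15.4% over all genes. YAP1 itself differed by -0.31 ± 0.06 and its relative WWTR1 by -0.29 ± 0.08 at its brightest probe set, with another higher (0.59). AMOTL1, which binds YAP, fell from 2472 to 1588, below its DMSO mean of 1935, while NT5E, an ectonucleotidase, rose from 516 to 839.9. Of 14 tight junction genes, 8 were lower and 1 higher (57.1% and 7.14%, against 31.8% and 15.4% of all genes). CLDN1 led the fall (-0.74), with means of 2244, 3932 and 2343 in DMSO, at 500 and at 1000 nM.

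A response that turned, up at 500 nM and below DMSO at 1000 nM, was seen in 195 probe sets, and the opposite in 146. These counts rest on small differences. With a minimum of 1.5-fold in each comparison 0 and 1 remained. With the 3' to 5' ratio as a covariate it was 21 and 12, and with the group weights 84 and 62. The largest of the first kind, beside FGF1, NOTCH3 and ACTA2, were MACC1, a regulator of MET (84.2, 165 and 57.9 in DMSO, at 500 and at 1000 nM), NHS, an actin regulator (941, 1135 and 462), and ZBTB20, a repressor of which all 9 probe sets fell. The largest of the second kind was 1 probe set of EIF1, a start-codon selection factor, with 1233, 1191 and 1163 in DMSO, 937, 1097 and 1094 at 500 nM and 4767, 4926 and 4877 at 1000 nM. SERPINA3, a protease inhibitor of the acute phase, followed with 481, 513 and 466, then 364, 476 and 386, then 992, 991 and 1104 (1.31 ± 0.09, adjusted p = 3.31e-11). RPL37, RBM8A, SLC44A1 and AP5M1 came next. Each had 1 or more probe sets that were not called, and the brightest of SLC44A1 was called lower (-0.17).

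Most DNA repair lists held genes that moved both ways. Of 24 nucleotide excision repair genes, 14 were lower and 0 higher (58.3% and 0%, against 31.8% and 15.4% of all genes). The median was -0.20. Under the group weights 7 were lower, and in the fit of 6 arrays 5 (21.4% and 16.9% of all genes were). DDB2 and XPC, given above, are p53 targets, and 12 others were called. MNAT1, which assembles the CDK-activating kinase of TFIIH, read 1242, 1308 and 1245 in DMSO, 842, 812 and 850.3 at 500 nM and 566, 549.6 and 561 at 1000 nM, a stepwise fall (-0.57 ± 0.05, adjusted p = 3.06e-09). XPA, which verifies the lesion, fell from 1266 ± 273 to 861 ± 33.7, with 500 nM arrays from 1025 to 1563 (-0.53 ± 0.09, adjusted p = 4.89e-05). GTF2H1 (-0.39) and ERCC2 (-0.38), both of TFIIH, ERCC6, the CSB protein of transcription-coupled repair (-0.31), ERCC8, its partner CSA (-0.22), and LIG1, the ligase (-0.39), were lower. ERCC1 (0.12) and DDB1 (0.03) were not called.

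In the Fanconi and homologous recombination list, 13 of 23 genes were lower and 2 higher, with a median of -0.24. These were 56.5% and 8.7%, against 31.8% and 15.4% of all genes. Of the 23, these 13 had no overlap between the arrays of the doses. Over all genes, called or not, every 1000 nM array was lower in 28.5%. The group weights left 8 lower, as were 21.4% of all genes. Against DMSO, 11 of the 23 were down at 500 nM and 16 at 1000 nM, where 35.8% of all genes were down. The 16 include 12 of the 13. RAD52, an annealing factor, read 1026, 1118 and 1066 in DMSO, 1216, 1033 and 1241 at 500 nM and 567, 669.6 and 630.0 at 1000 nM, so its fall appeared only at the higher of these doses (-0.88 ± 0.10, adjusted p = 7.93e-08). FANCF, of the Fanconi core complex, fell in steps, with 754, 801 and 779, then 458, 465 and 570.1, then 279, 306 and 319.5 (-0.69 ± 0.08, adjusted p = 3.07e-07). RAD51C (-0.47), BRIP1 (-0.44), PALB2 (-0.40) and BRCA1 (-0.20) were lower. FANCB rose from 215 to 362 at the brightest of its 4 probe sets, the only one called (0.71 ± 0.13, adjusted p = 9.12e-05), and RAD54L rose by 0.29. Of 20 base excision and mismatch repair genes 9 were lower and 4 higher (45% and 20%, against 31.8% and 15.4% of all genes). PMS1 was lowest at its brightest probe set (-0.65), though others of its probe sets were higher (0.54 and 0.53). FEN1 was highest (0.43). Of 27 translesion synthesis and checkpoint genes 12 were lower and 7 higher (44.4% and 25.9%, against 31.8% and 15.4% of all genes). The damage-tolerant polymerases POLI (-0.77), POLK (-0.44) and POLH (-0.38 at its brightest probe set, 0.43 at another) were lower, and H2AX (0.67), CLSPN (0.66) and CHEK1, a checkpoint kinase (0.54), were higher.

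Replication genes split. Of 45, 16 were higher and 12 lower (35.6% and 26.7%, against 15.4% and 31.8% of all genes), with a median of 0.10. Among those higher, CCNE1, cyclin E, read 514, 531 and 529 in DMSO, 579.5, 587 and 699.7 at 500 nM and 1129, 1196 and 1164 at 1000 nM (0.89 ± 0.09, adjusted p = 4.48e-08). CDT1, which loads the MCM helicase, read 878, 845 and 818 at 500 nM and 1419, 1253 and 1463 at 1000 nM, with no call between 500 nM and DMSO (0.69 ± 0.07, adjusted p = 1.85e-08). CCNE2 (0.62), E2F1 (0.62), MCM2 (0.57), MCM4 (0.49), ORC1 (0.52), ORC6 (0.44) and CDC6 (0.45) were also higher. Those lower included the origin subunits ORC2 (-0.50), ORC3 (-0.42) and ORC5 (-0.61), and polymerase-alpha and primase subunits, POLA2 (-0.66), POLA1 (-0.27) and PRIM1 (-0.46).

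Histone genes, which package new DNA, rose at 1000 nM. Of 11 measured, 7 were higher and 0 lower (63.6% and 0%, against 15.4% and 31.8% of all genes), with a median of 0.49. Of the 11, these 7 had no overlap between the arrays of the doses. Over all genes, called or not, every 1000 nM array was higher in 15%. The 4 H2B genes led. H2BC12 read 537, 509 and 528 in DMSO, 635, 670.2 and 543 at 500 nM and 1793, 1767 and 1714 at 1000 nM (1.49 ± 0.09, adjusted p = 3.71e-12). H2BC5 read 127, 180.4 and 159, then 175, 182 and 152, then 566, 521 and 553 (1.60 ± 0.11, adjusted p = 1.08e-10). H2BC21 went from 252 ± 45.9 to 566 ± 23.4 (1.13 ± 0.14, adjusted p = 2.88e-07) and H2BC9 from 111 ± 4.98 to 239 ± 27.3 (1.00 ± 0.13, adjusted p = 1.14e-06). In each the 1000 nM arrays were about level with one another and above all 6 arrays of DMSO and 500 nM. H2AC8 (0.65), H1-2 (0.49) and H2AC6 (0.43) were higher, and H3C3 (-0.18 ± 0.12), H1-3 (-0.04 ± 0.13), H1-5 and H1-10 were not called. H2B genes are near-identical copies, and 2 of the 4 probe sets carry the x mark for probes shared with other sequences, so a rise may not be assigned to 1 copy.

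Promoters of the 4 H2B genes are shown because these genes rose together. Each is the 150 bases before the RefSeq start on GRCh38.p14, 5' to 3' on the gene's strand, with capitals for exact matches to the octamer ATTTGCAT on either strand, a motif long known from H2B promoters. It was found in the 150 bases before 0.985% of 27305 promoters, in those of 3 of the 4 H2B genes, and in H2AC6 among the other 7 histone genes measured. CCAAT, found in 24.4% of promoters, occurs before 10 of the 11. The windows are chr6:27146859-27147008 (minus strand), chr6:26251464-26251613 (plus strand), chr1:149886683-149886832 (minus strand) and chr6:26157971-26158120 (plus strand).

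H2BC12: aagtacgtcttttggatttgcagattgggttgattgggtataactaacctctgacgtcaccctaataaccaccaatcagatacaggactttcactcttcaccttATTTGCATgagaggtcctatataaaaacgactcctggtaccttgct

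H2BC9: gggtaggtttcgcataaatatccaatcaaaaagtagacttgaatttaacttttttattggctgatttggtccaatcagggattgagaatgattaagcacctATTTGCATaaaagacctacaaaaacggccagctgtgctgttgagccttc

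H2BC21: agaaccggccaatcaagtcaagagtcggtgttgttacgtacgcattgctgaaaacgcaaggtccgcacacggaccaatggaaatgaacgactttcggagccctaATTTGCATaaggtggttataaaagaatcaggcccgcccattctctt

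H2BC5: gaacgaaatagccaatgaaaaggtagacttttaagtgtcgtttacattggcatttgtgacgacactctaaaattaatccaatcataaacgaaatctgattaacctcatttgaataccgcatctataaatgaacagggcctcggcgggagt

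The first 3 hold the octamer from 46 to 49 bases before the start, and H2BC5, with the largest difference of the 4, has no exact match in this window.

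The 12 genes of largest rise need their other probe sets beside them. Their differences ran from 1.97 to 3.17, but in 9 of the 12 the probe set that rose was not the gene's brightest. In those 9 the brightest probe set differed by -0.07 to 0.36 and was called higher in 4. JMJD6, an Fe(II)-dependent hydroxylase that acts on splicing factors and pause release, is the first. One of its 3 probe sets read 117, 94.3 and 82.5 at 500 nM and 733, 1352 and 1002 at 1000 nM (3.17 ± 0.15, adjusted p = 6.03e-14), while its brightest went from 1565 ± 52.6 to 2014 ± 143 (0.36 ± 0.06, adjusted p = 2.73e-05). ABCF2, SLC25A3, ZBTB11, EIF1, NSUN3, CLDND1, TMEM165 and FNIP1 were the others of this kind, and NSUN3 had another probe set called lower (-0.46). EIF1 had differences from -0.09 to 0.20 at its 6 other probe sets. CLDND1 rose by 2.12 at a probe set with an intensity of 149 at 500 nM, and its brightest stood at 4572 and 4626. Over all genes with several probe sets and at least 1 call, 381 of 4313 (8.83%) had calls in both directions. PCDH10, a protocadherin (35.2, 97.9 and 503 in DMSO, at 500 and at 1000 nM), and BAMBI, a decoy receptor that dampens TGF-beta signalling (63.7, 124 and 551), had 1 probe set each. FOLR1, a folate receptor, rose at 1 of 2 (30.2, 75.0 and 344).

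Genes that 500 nM had raised and 1000 nM raised again included transcription factors and signalling kinases. ID2, which blocks differentiation factors by binding them, read 20.7, 25.9 and 29.2 in DMSO, 144, 136 and 167 at 500 nM and 598, 632 and 557 at 1000 nM (1.90 ± 0.12, adjusted p = 1.68e-11). SGK1, a kinase of salt and stress signalling, read 225, 257 and 225, then 612, 601 and 793, then 2242, 2214 and 2101 (1.70 ± 0.13, adjusted p = 3.67e-10). Within the 20 TGF-beta and SMAD target genes 5 were higher and 6 lower (25% and 30%, the latter near the 31.8% of all genes). ID2 and BAMBI were among those higher, and TGFB2, SNAI2 (-0.52), PMEPA1 (-0.50) and ID3 (-0.36) among those lower. Of 25 immediate early genes 7 were higher and 4 lower (28% and 16%, against 15.4% and 31.8% of all genes). FOSB read 173, 167 and 192 at 500 nM and 534, 544 and 414 at 1000 nM (1.40 ± 0.17, adjusted p = 2.70e-07), NR4A2, a nuclear receptor, rose by 0.91 and JUN by 0.49 at its brightest probe set, with another of its 4 lower (-0.58). KLF6 (-0.71), DUSP1, a phosphatase of MAP kinases (-0.66), and CCN1 (-0.37) were lower. MYC was not called (-0.42 ± 0.25). TGM2, a transglutaminase, went from 85.8 to 315 (1.70 ± 0.19, adjusted p = 1.20e-07), and LOX, which cross-links collagen, from 173, 188 and 238 to 387, 451 and 451 (1.05 ± 0.09, adjusted p = 3.25e-09).

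**Figure D4:**
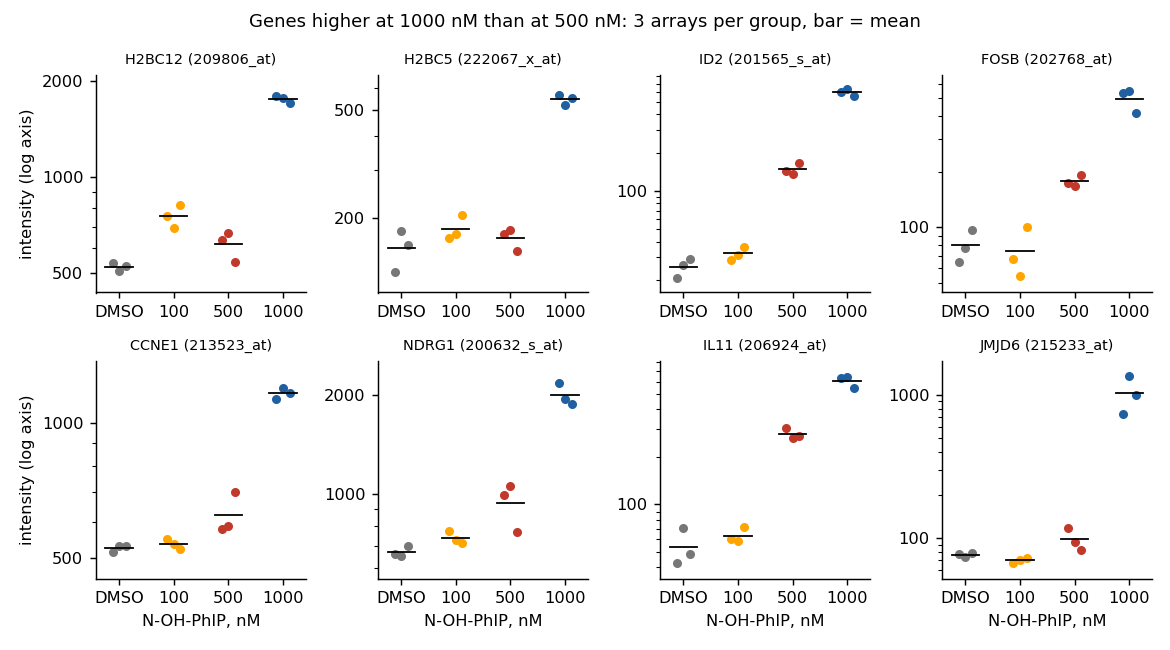
Intensity on each of 3 arrays (points, log axis) and the group mean (bar) in DMSO and at 100, 500 and 1000 nM for 8 genes, each with its probe set. In all 8 the 1000 nM arrays lie above every other array shown, and for H2BC5 and JMJD6 the 500 nM group differs little from DMSO.

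Genes of glycolysis were among those that rose. Of 24 hypoxia and glycolysis genes, 14 were higher and 1 lower (58.3% and 4.17%, against 15.4% and 31.8% of all genes). The median was 0.22. NDRG1, a hypoxia-induced growth suppressor, read 659.9, 649 and 699.8 in DMSO, 995, 1059 and 768 at 500 nM and 2164, 1943 and 1877 at 1000 nM (1.08 ± 0.09, adjusted p = 9.17e-10). ALDOC, an aldolase, went from 790.1 ± 90.9 to 1625 ± 109 (1.03 ± 0.10, adjusted p = 1.03e-08), and the glycolytic enzymes ENO1 (0.47), HK2 (0.40, with its other probe set lower at -1.04) and PGK1 (0.36) rose. VEGFA at its brightest probe set (-0.06 ± 0.08, with 2 of 4 probe sets higher, by 0.70 and 0.69) and LDHA (0.01 ± 0.03) were not called, and DDIT4, an mTOR inhibitor, fell by 0.27. Of 18 cholesterol synthesis genes, 9 were higher and 3 lower (50% and 16.7%, against 15.4% and 31.8% of all genes). DHCR7 (0.64) and SC5D (0.58) led the rise, while TM7SF2 (-0.76) and HSD17B7 (-0.64) fell. Of 21 NRF2 antioxidant genes 7 were higher and 0 lower (33.3% and 0%, against 15.4% and 31.8% of all genes). NQO1 (-0.07 ± 0.04) and HMOX1 (-0.09 ± 0.14), the usual markers of that pathway, were not called at their brightest probe sets, and 1 of the 2 others of NQO1 was higher (0.16, adjusted p = 0.0192). Of 28 respiratory chain subunits 6 were higher and 10 lower (21.4% and 35.7%, against 15.4% and 31.8% of all genes). The median was 0.0047.

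The unfolded protein and integrated stress genes recovered in part. This list of 29 had a median of -0.23 against DMSO at 500 nM and of 0.10 between the doses. Between the doses 14 genes were higher and 1 lower (48.3% and 3.45%, against 15.4% and 31.8% of all genes). Under the group weights 7 were higher and in the fit of 6 arrays 6 (9.82% and 7.95% of all genes were). CHAC1, a glutathione-degrading enzyme downstream of ATF4, read 1172, 1186 and 1309 in DMSO, 666, 833 and 644 at 500 nM and 1532, 1262 and 1279.9 at 1000 nM, back within the range of DMSO or above (0.92 ± 0.12, adjusted p = 1.24e-06). DNAJB9, a chaperone of the endoplasmic reticulum, read 1423, 1567 and 1689.7 at 500 nM and 2633, 2227 and 2577 at 1000 nM (0.66 ± 0.08, adjusted p = 7.20e-07). TRIB3, a pseudokinase, kept falling (-0.31 ± 0.07), and DDIT3 (-0.13 ± 0.08) and HSPA5 (0.06 ± 0.04) were not called, though the dimmer of 2 probe sets of HSPA5 was higher (0.46). CYP1B1, which oxidises aromatic carcinogens, was not called at its brightest probe set (0.17 ± 0.11) and was higher at 1 of 2 others (0.33, adjusted p = 0.0305), and CYP1A1 lay under the minimum for testing, with means of 28.0 in DMSO, 13.3 at 500 nM and 12.4 at 1000 nM.

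Genes that span more DNA fell more often. Of 12164 genes with a span in the RefSeq table, those under 10 kb had a median difference of 0.01 between the doses, with 19.5% lower, and those of 10 to 30 kb one of -0.02, with 25.4% lower. From 30 to 100 kb the median was -0.09 and 34.8% were lower. From 100 to 300 kb it was -0.23 with 52.8% lower, and at 300 kb and over it was -0.27 with 52.0% lower. The last 2 bins held 1753 and 371 genes. They were near each other in this step, although against DMSO the genes of 300 kb and over had already fallen by 0.71 at 500 nM and those of 100 to 300 kb by 0.18. Of the genes down at 500 nM, 55.1% of those of 100 to 300 kb fell further and 5.18% rose again, against 27.1% and 18.1% of those under 10 kb. At 300 kb and over the shares were 50.9% and 10.6%, so neither share ran steadily with span. These shares share the 500 nM arrays and are given as a description.

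**Figure D5:**
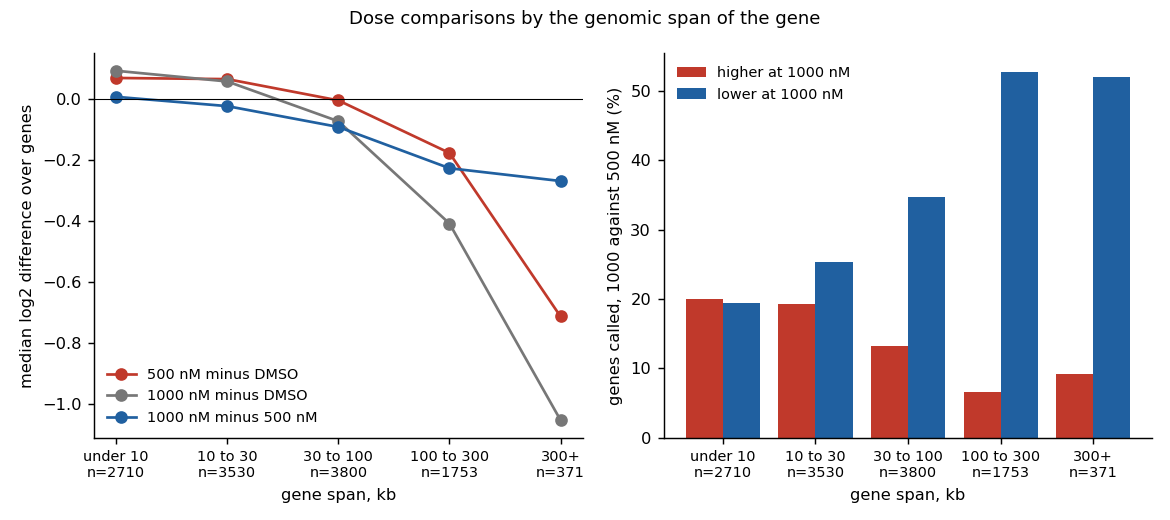
Left, median log2 difference over the genes of each span bin for 500 nM minus DMSO, 1000 nM minus DMSO and 1000 minus 500 nM. Right, percent of genes in each bin called higher (red) or lower (blue) at 1000 nM than at 500 nM. The share lower rises from 19.5% under 10 kb to 52.8% at 100 to 300 kb and is 52.0% above that.

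Single long genes showed the stepwise loss. THRB, a thyroid hormone receptor whose gene spans 379 kb, read 725, 696 and 778 in DMSO, 504, 407 and 441 at 500 nM and 165, 166 and 187 at 1000 nM (-1.30 ± 0.07, adjusted p = 9.39e-13). ZHX2, a transcriptional repressor, had means of 545, 317 and 119.8 in that order, and HHAT, which adds palmitate to Hedgehog proteins, of 298, 127 and 48.5. SOX6, a transcription factor spanning 772 kb, had no fall at 500 nM but a large one at 1000 nM, with 88.2, 104 and 115, then 118, 106 and 87.9, then 19.8, 17.4 and 22.8 (-1.73 ± 0.13, adjusted p = 2.49e-10). Of its 4 probe sets 3 were lower. HDAC9, a histone deacetylase, followed the same course at its brighter probe set (198, 231 and 92.2), while the other fell at 500 nM and was then not called (196, 31.8 and 33.4). Of 39 measured long genes outside fragile sites, 25 were lower and 1 higher (64.1% and 2.56%, against 31.8% and 15.4% of all genes). Against DMSO, 32 of the 39 were down at 500 nM and 36 at 1000 nM, where 35.8% of all genes were down. All 25 were among the 36. SAMD12 (-0.95), MAML2, a Notch coactivator (-0.89), and ATXN1 (-0.86 at its brightest probe set, 0.33 at another) were ahead. In the fit of 6 arrays 16 were lower, as were 16.9% of all genes.

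Genes at common fragile sites, very long genes prone to breaks under replication stress, did not follow. Of 16 measured, 9 were higher and 3 lower at 1000 nM than at 500 nM, with a median of 0.28. These were 56.25% and 18.75%, against 15.4% and 31.8% of all genes. Of the 16, 5 were called higher with no overlap between the arrays of the doses, and in the rest of the 9 the arrays overlapped. Over all genes, called or not, every 1000 nM array was higher in 15%. At 500 nM the list stood 1.98 below DMSO at its median and at 1000 nM 1.54 below, and all 9 that rose remained below DMSO. IMMP2L, a mitochondrial peptidase gene spanning 899.8 kb, read 649.6, 695 and 674 in DMSO, 50.2, 54.4 and 79.8 at 500 nM and 100.3, 83.3 and 139 at 1000 nM (0.67 ± 0.13, adjusted p = 1.15e-04). DPYD, the first enzyme of pyrimidine breakdown, had means of 32.4 at 500 nM and 62.6 at 1000 nM against 348 in DMSO (0.71 ± 0.12, adjusted p = 3.75e-05). These levels lie near the minimum for testing, where the offset weighs most. The count of 9 was 4 without the first 500 nM array, where 14% of all genes were higher. PTPRG, a receptor phosphatase, was among those lost (0.62 ± 0.17 with all arrays, 0.33 without that one). NBEA, which acts in membrane traffic, fell on from 83.8, 71.9 and 111 to 58.9, 46.1 and 77.3, with overlap (-0.46 ± 0.12, adjusted p = 0.00273), and DMD (-0.47) and FOXP1 (-0.32) were lower too.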

How the data were processed

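Samples were grouped by the dose in their titles. The authors deposited 1 intensity per probe set and array on a linear scale. The method of their normalization is not stated by the labels or headers, and GCOS, the scanner software, stands in the submitters' processing notes with no version. Per the labels' protocols, RNA was amplified and biotin-labelled with NuGEN Ovation kits. Of 54675 probe sets, 62 controls were left out, 41097 of all had 1 gene symbol and 1801 several. Tests ran on log2(intensity + 16) for the 27307 probe sets with a mean at or above the median (5.74, an intensity of 37.4). A limma fit (3.58.1, R 4.3.3) held a mean for each of the 10 groups, a mean-variance trend and 19 residual degrees of freedom, and p-values were two-sided and adjusted by Benjamini-Hochberg at 0.05. Symbols came from the array's annotation, of which 23134 tested probe sets matched the RefSeq table by gene identifier. Spans are those of RefSeq genes on GRCh38.p14. The procedure was tested on simulated data in which few probe sets changed and all groups shared 1 spread. It recovered 65% of simulated log2 changes of 0.5 and 100% of those of 1, with 5 false calls. The larger spread of the 500 nM arrays was not simulated.

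Members and the 46 gene lists were chosen with earlier results of these data known. Genes named are the 12 of largest change in each direction with no overlap of the arrays, 6 from each class, up to 4 called members of each list, and 20 chosen by name. Other list members named beside them were picked after their values were seen. Alternatives were offsets of 1 and 64, quantile normalization, median centring, other level minimums (none, upper 25%), no trend, a replicate block, smaller sets of arrays, the 3' to 5' ratio, a 1.5-fold minimum and each array left out. The group weights, and list counts under every alternative, were added after seeing the data. The number of arrays limits the precision. Python 3.11.15 and matplotlib 3.10.9 made the tables and figures.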

Additional observations from a re-analysis of the deposited data

How the results depend on the processing

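Of 209 genes or probe sets named with a call, 180 kept direction and call under each alternative run on them, 29 lost the call in at least 1, and 0 reversed. With quantile normalization 5190 probe sets were higher and 6384 lower, and with median centring 5774 and 5989. Same-numbered arrays at 500 and 1000 nM deviated with correlations from -0.20 to 0.24, and differently numbered ones from -0.275 to 0.28. With 3 arrays per group these values cannot show whether the numbers pair the cultures, and the labels do not say. The replicate block gave 11901 calls, 4883 higher and 7018 lower. The causes of the shifts below were not tested, apart from fewer probe sets (upper 25%) or fewer arrays.

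Testing the upper 25% of mean level gave 7131 called between the doses, 2849 higher, 4282 lower, 7331 called at 500 nM against DMSO, 9216 called at 1000 nM against DMSO, 837 further up, 1086 receding, 1107 added up and 1371 added down. A fit of the DMSO, 500 and 1000 nM arrays alone gave 4652 lower, 751 further up, 1181 further down, 1167 receding, 403 recovering, 63 reversed up to down and 57 reversed down to up. A fit of the 6 arrays alone gave 6430 called between the doses, 2767 higher and 3663 lower. The 3' to 5' ratio as a covariate gave 1294 receding, 527 recovering, 21 reversed up to down and 12 reversed down to up. Group weights, chosen after seeing the data, gave 7496 called between the doses, 3089 higher, 4407 lower, 601 further up, 1159 further down, 1020 receding, 370 recovering, 84 reversed up to down and 62 reversed down to up. A minimum of 1.5-fold gave 2543 called between the doses, 1298 higher, 1245 lower, 3436 called at 500 nM against DMSO, 6456 called at 1000 nM against DMSO, 176 further up, 143 further down, 369 receding, 50 recovering, 890 added up, 488 added down, 0 reversed up to down and 1 reversed down to up. Averaging a gene's probe sets gave medians of 0.24 for cholesterol synthesis, 0.19 for the unfolded protein list, -0.12 for Fanconi and recombination repair, -0.25 for long genes, 0.0828 for ribosomal proteins, -0.0613 for spans of 30 to 100 kb, -0.18 for spans of 100 to 300 kb and -0.21 for spans of 300 kb and over. Median centring gave medians of 0.14 for the unfolded protein list and 0.0502 for ribosomal proteins. Quantile normalization gave medians of -0.0025 for ribosomal proteins, -0.0731 for spans of 30 to 100 kb and -0.22 for spans of 300 kb and over. Leaving out each array in turn gave 702 to 1304 recovering, 90 to 251 reversed down to up, 127 to 270 reversed up to down and -0.45 to -0.34 for the inflammatory median.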
